A study of Mus musculus with 123 samples.

Results

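Liver RNA was compared between mice on a high fat diet, HFD, and mice on a diet low in fat, LFD, all kept under the photoperiod that the labels call Short light. The libraries were chosen by that label. They number 42, with 21 from HFD mice and 21 from LFD mice, in a series that also holds 40 libraries from Equal light and 41 from Long light. HFD was compared with LFD across all genes, with time as a factor. Livers had been taken at 6 zeitgeber times (ZT), ZT0, ZT4, ZT8, ZT12, ZT16 and ZT20, which gives 12 groups. The HFD groups held 4 libraries at ZT0, ZT4 and ZT8 and 3 at the later times, and the LFD groups held 3 libraries at ZT0, ZT4 and ZT8 and 4 at the later times. The Equal and Long light libraries have the same diets and times. The labels used here do not give the strain, sex or age of the mice, how long they were fed, the hours of light or the event that sets ZT0. They name no animals either, so each p-value sets a difference only against the spread between libraries, some of which may be technical. That spread was estimated from the libraries of all 3 photoperiods.

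The liver takes up fatty acids from the blood, makes them from carbohydrate, stores them as triglyceride in lipid droplets, exports them in lipoproteins and burns them in mitochondria and peroxisomes. Insulin and carbohydrate drive the synthesis enzymes through the transcription factors SREBP1 and ChREBP, fatty acids act on PPAR alpha to raise oxidation genes, and sterols hold back cholesterol synthesis through SREBP2. Many of these genes also follow a daily cycle set by the circadian clock and by feeding. Hepatocytes around the central vein and around the portal vein divide the work of the liver, and its resident macrophages are the Kupffer cells.

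The promoters of 5 genes that the results turn on are shown first, as the 250 bases before the start given by RefSeq on GRCm38.p6, 5′ to 3′ on the strand of the gene. Elovl6 (chr3:129532136-129532385, plus strand), Pnpla3 (chr15:84167566-84167815, plus strand) and Lepr (chr4:101717157-101717406, plus strand) were lower on HFD. Cd36 (chr5:17835897-17836146, minus strand) and Aldh3a2 (chr11:61267187-61267436, minus strand) were higher on HFD. Capitals mark 3 motifs on either strand, none of which overlaps another here. They are the CCAAT box CCAAT, bound by NF-Y, the nuclear receptor half-site AGGTCA, and the E-box CACGTG, bound by bHLH factors such as USF and CLOCK.
Elovl6: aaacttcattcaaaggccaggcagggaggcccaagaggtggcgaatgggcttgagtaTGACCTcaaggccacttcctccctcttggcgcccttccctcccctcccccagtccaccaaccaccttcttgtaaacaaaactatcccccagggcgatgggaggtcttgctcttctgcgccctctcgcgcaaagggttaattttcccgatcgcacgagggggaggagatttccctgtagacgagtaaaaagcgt
Pnpla3: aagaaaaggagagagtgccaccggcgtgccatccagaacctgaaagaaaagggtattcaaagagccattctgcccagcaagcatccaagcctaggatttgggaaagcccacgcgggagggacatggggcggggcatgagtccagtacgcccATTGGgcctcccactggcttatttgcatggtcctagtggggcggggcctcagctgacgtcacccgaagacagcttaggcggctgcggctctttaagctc
Lepr: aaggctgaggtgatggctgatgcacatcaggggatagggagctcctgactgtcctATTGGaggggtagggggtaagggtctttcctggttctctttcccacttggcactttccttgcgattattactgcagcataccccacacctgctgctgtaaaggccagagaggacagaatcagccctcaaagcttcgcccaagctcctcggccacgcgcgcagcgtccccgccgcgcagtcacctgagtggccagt
Cd36: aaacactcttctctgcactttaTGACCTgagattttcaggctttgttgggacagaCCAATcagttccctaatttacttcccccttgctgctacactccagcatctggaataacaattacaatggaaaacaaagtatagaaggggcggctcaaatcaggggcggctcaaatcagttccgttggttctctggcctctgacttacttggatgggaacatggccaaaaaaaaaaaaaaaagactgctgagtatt
Aldh3a2: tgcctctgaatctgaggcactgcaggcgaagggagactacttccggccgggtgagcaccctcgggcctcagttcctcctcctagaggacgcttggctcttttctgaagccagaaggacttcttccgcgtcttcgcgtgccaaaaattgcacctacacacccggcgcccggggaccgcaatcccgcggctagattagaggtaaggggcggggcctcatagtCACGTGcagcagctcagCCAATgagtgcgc
The CCAAT box stood in 33.8%, the half-site in 14% and the E-box in 6.02% of all 32851 promoter windows of this length in the RefSeq table. Over the 10763 tested genes with a window, 1 each, the shares were 36.3% for the CCAAT box, 10.8% for the half-site and 8.38% for the E-box. Of 7 lists described below, the CCAAT box stood in 15 of 17 windows for cholesterol synthesis, 10 of 17 for fatty acid synthesis, 11 of 23 for fatty acid oxidation, 6 of 18 for macrophages, 6 of 20 for lipid droplets and uptake, 3 of 12 for pericentral genes and 2 of 20 for the acute phase. The half-site stood in 7 of 20 windows for lipid droplets and uptake, 6 of 20 for the acute phase, 5 of 18 for macrophages, 3 of 17 for each of the synthesis lists, 3 of 23 for fatty acid oxidation and 1 of 12 for pericentral genes. These are matches of letters and say nothing of binding.

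Each level below is a deposited log2 CPM, the log2 of reads scaled to library size with a small count added, so that a gene without reads sits at -3.61. Depth was 13.97 to 32.83 M reads in HFD libraries and 14.72 to 39.09 M in LFD libraries. The hepatocyte genes bore out the tissue label: the albumin gene Alb averaged 16.11 ± 0.30 log2 CPM in HFD livers and 16.31 ± 0.19 in LFD livers (SD, n = 21 each). In bulk RNA, fewer cells of a type and less RNA per cell cannot be told apart. Some libraries stood apart. LFD ZT0 replicate 3 lay farthest from the other replicates of its group, and on 18 of the 24 genes with the largest diet differences its level was nearer to the HFD mean at ZT0 than to the mean of the other LFD libraries at ZT0. The same count against the opposite diet was 16 for HFD ZT20 replicate 2, 14 for HFD ZT0 replicate 3 and 13 for HFD ZT8 replicate 1, with a median of 5 over the 42 libraries. In 4 libraries the markers of pancreas or skeletal muscle averaged over 4 log2 CPM, namely HFD ZT8 replicates 1 (muscle) and 2 (pancreas), and LFD ZT8 replicate 2 and LFD ZT16 replicate 1 (both pancreas). The mean level of the 17 pancreas markers was -1.12 ± 2.25 log2 CPM in HFD livers and 0.72 ± 2.86 in LFD livers (SD, n = 21 each). None of the 17 was called between the diets by limma, although 16 had an unadjusted p under 0.05.

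HFD and LFD livers under Short light differed in 990 of 14397 genes tested (6.88%) at an adjusted p of at most 0.05, here termed called. Of these, 538 were higher on HFD (3.74% of the genes tested) and 452 were lower (3.14%). The differences were mostly small. The median absolute log2 difference of the 990 genes was 0.29, and 172 of them (1.19% of the genes tested) changed by more than 1.5-fold, 81 upward and 91 downward. The difference had the same sign at all 6 times in 75.8% of the 990 genes, against 13.9% of all genes tested. The 990 genes were called on the mean of these same 6 differences, which favours a shared sign, so this share is no separate support. Single libraries weighed on the count. It was 556 without HFD ZT20 replicate 1, 610 without LFD ZT0 replicate 1 and 649 without HFD ZT16 replicate 1. Without LFD ZT0 replicate 3 it was 1234. Without the 16 libraries of the whole series rich in pancreas or muscle RNA it was 569, of which 558 were among the 990. Those 16 include the 4 Short light libraries named above, and the others bear on the shared estimate of spread. The same 16 were left out wherever rich libraries are omitted below. Leaving out replicate 1 of every group under all 3 photoperiods gave 120, and leaving out replicate 2, 3 or 4 in the same way gave 534 to 626. At 5 or more times all HFD libraries lay above all LFD libraries in 1 gene (0.00695%), Agxt2, an aminotransferase gene (0.34, adjusted p = 6.52e-05), and below them in 3 genes (0.0208%), Cfap20dc, Rpl6 and a gene model without a name, all named here after their values were seen.

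Lepr, the leptin receptor gene (chr4:101717404-101815352 on GRCm38, plus strand), had the smallest adjusted p among the named decreases. Its level ran from 1.14 to 3.21 log2 CPM with a median of 2.18 in HFD livers, and from 2.46 to 5.64 with a median of 4.15 in LFD livers. At ZT4 the HFD libraries read 1.88, 2.73, 2.33 and 1.52, and the LFD libraries 4.86, 5.64 and 4.74. Every HFD library lay below every LFD library at ZT4, ZT8, ZT16 and ZT20, a pattern shown at 4 or more times by 0.222% of all genes. Averaged over the 6 times with equal weight, Lepr fell 3.86-fold on HFD (log2 difference -1.95 ± 0.24 SE, adjusted p = 3.67e-08). Fabp5, which encodes a fatty acid binding protein (chr3:10012548-10016607, plus strand), had the largest decrease among the named genes. Its level ran from 1.84 to 6.10 log2 CPM with a median of 3.63 in HFD livers, and from 3.49 to 8.47 with a median of 6.92 in LFD livers. The ranges overlapped, and all HFD libraries lay below all LFD libraries at ZT4, ZT12 and ZT16. Fabp5 was 7.41-fold lower on HFD (log2 difference -2.89 ± 0.44 SE, adjusted p = 9.46e-06).

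Srgap3, a GTPase-activating protein gene, ran from -0.39 to 3.07 log2 CPM with a median of 1.64 in HFD livers, and from 1.28 to 3.70 with a median of 3.01 in LFD livers. All HFD libraries lay below all LFD libraries at ZT4, ZT8, ZT12 and ZT20, and the log2 difference was -1.27 ± 0.21 SE (adjusted p = 2.22e-05). Adgrf1, an adhesion G protein-coupled receptor, ran from 0.13 to 4.65 with a median of 2.12 in HFD livers, and from -0.04 to 5.79 with a median of 4.30 in LFD livers. Its lowest LFD level came from LFD ZT0 replicate 3, and the groups kept apart at ZT4, ZT8 and ZT16 (log2 difference -1.83 ± 0.36 SE, adjusted p = 0.000341). The serine protease gene Prss8 fell by 1.07 on the log2 scale (adjusted p = 0.000824), the serpin pseudogene Serpina4-ps1 by 1.73 (adjusted p = 0.00299) and Cib3, a calcium- and integrin-binding protein gene, by 1.31 (adjusted p = 0.0144). Ugt2b38 and Ugt1a5, genes of glucuronidation enzymes, fell by 1.37 (adjusted p = 0.0137) and 1.08 (adjusted p = 0.0411), but both belong to families of near-identical or exon-sharing genes between which reads may be split. The call of Ugt2b38 was lost without HFD ZT20 replicate 1 (adjusted p = 0.0512), and that of Ugt1a5 was lost in 19 of the 42 analyses that left out 1 library.

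**Figure D1:**
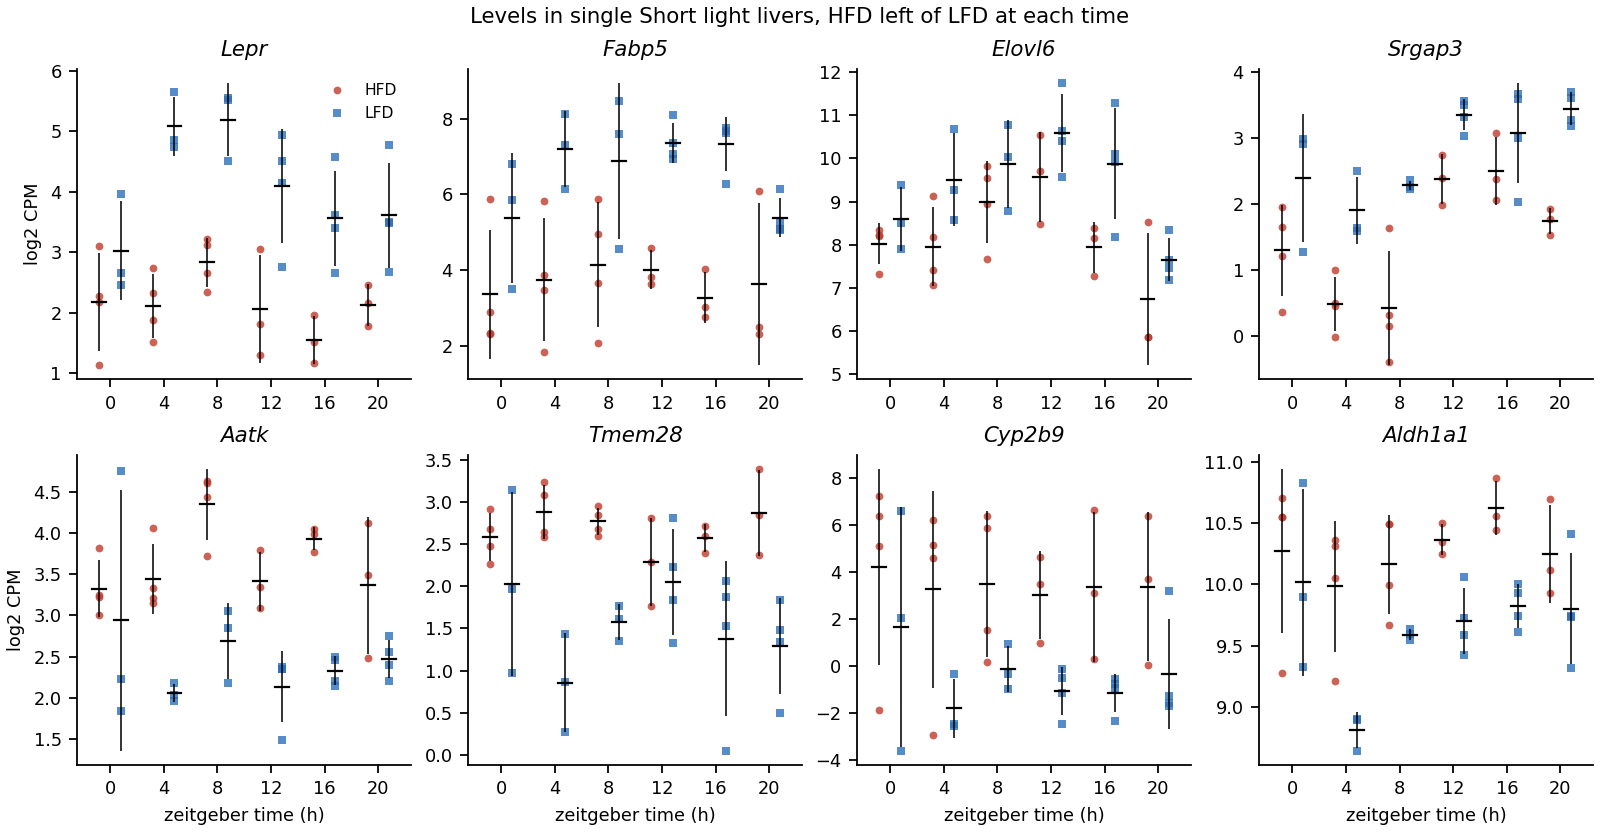
Level in each Short light library (log2 CPM, vertical axis) of 8 genes, with HFD libraries as circles to the left of LFD libraries as squares at each time; black lines are means and bars are SD. At ZT4 the HFD libraries of Lepr sit between 1.52 and 2.73 and the LFD libraries between 4.74 and 5.64.

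The gene lists used from here on were chosen with earlier results of these data known, so their shares are described and not tested. In fatty acid synthesis 5 of 21 genes fell on HFD, against 3.14% of all genes, and none rose. In this list 18 genes had a negative difference, and the median log2 difference was -0.41 against 0.0035 over all genes. Elovl6, the elongase that lengthens palmitate (chr3:129532355-129638495, plus strand), ran from 5.86 to 10.54 log2 CPM with a median of 8.23 in HFD livers, and from 7.18 to 11.74 with a median of 9.38 in LFD livers. The diets overlapped at every time, and the log2 difference was -1.14 ± 0.34 SE (adjusted p = 0.0270). At ZT20 the HFD libraries read 5.86, 8.52 and 5.87 and the LFD libraries 7.47, 8.33, 7.18 and 7.64. The call of Elovl6 was lost without HFD ZT20 replicate 1 or without LFD ZT4 replicate 1, where the adjusted p reached 0.0601. Pnpla3, a lipid droplet protein induced with lipogenesis, ran from -1.18 to 5.46 with a median of 2.49 in HFD livers, and from 0.32 to 6.94 with a median of 4.56 in LFD livers (log2 difference -1.82 ± 0.51 SE, adjusted p = 0.0178).

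Me1, the malic enzyme that supplies NADPH for synthesis, fell by 1.13 on the log2 scale (adjusted p = 0.0162), Scd1, the main liver desaturase, by 1.004 (adjusted p = 0.0428), and Slc25a1, the mitochondrial citrate carrier, by 0.27 (adjusted p = 0.0469). The call of Scd1 was lost in 21 of 42 single-library omissions. The carboxylase genes had differences of -0.75 for Acaca (adjusted p = 0.0529) and -0.84 for Acacb (adjusted p = 0.0679), and neither passed the test. Other members lay farther from the threshold, among them Fasn (-0.62, adjusted p = 0.263), Acly (-0.56, adjusted p = 0.277) and Fads2 (-0.02, adjusted p = 0.956). The genes of SREBP1 and ChREBP, Srebf1 (0.15, adjusted p = 0.687) and Mlxipl (-0.15, adjusted p = 0.314), were not called either. Across the list the count of members called lower was 2 without HFD ZT20 replicate 1, 3 without LFD ZT0 replicate 3 and 3 without the libraries rich in other tissues. Among 10 genes of NADPH supply Me1 alone was called, against 3.14% of all genes lower. G6pdx, the entry enzyme of the pentose phosphate pathway, had a difference of -1.06 (adjusted p = 0.0527). Of 25 genes of cholesterol synthesis 23 had a negative difference, with a median of -0.37. Only 1 of the 25 was called, against 3.14% of all genes lower, the sterol carrier Stard4 (log2 difference -0.42, adjusted p = 0.0369). That call was lost without HFD ZT20 replicate 1.

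In fatty acid oxidation and ketogenesis 7 of 30 genes rose by small amounts, against 3.74% of all genes, and none fell, and all 30 had a positive difference, with a median of 0.16. The 7 were Cpt2, the inner carnitine acyltransferase of mitochondria (0.26, adjusted p = 0.00267), the peroxisomal bifunctional enzyme Hsd17b4 (0.22, adjusted p = 0.00737), Acat1 (0.28, adjusted p = 0.0105), Hadh (0.25, adjusted p = 0.0119), Ech1 (0.33, adjusted p = 0.0123), Acadm (0.29, adjusted p = 0.0156) and Etfdh (0.17, adjusted p = 0.0398). The count was 6 without HFD ZT20 replicate 1 and 11 without LFD ZT0 replicate 3. Among 22 targets of PPAR alpha and fasting signals 2 rose, against 3.74% of all genes, and none fell. Of the 22, 12 had a positive difference and 10 a negative one. Aldh3a2, a fatty aldehyde dehydrogenase, ran from 7.38 to 9.52 log2 CPM with a median of 8.82 in HFD livers, and from 7.17 to 9.67 with a median of 7.94 in LFD livers (log2 difference 0.71 ± 0.15 SE, adjusted p = 0.00117). Vnn1, a pantetheinase, rose by 0.83 (adjusted p = 0.0297), a call lost in 8 of 42 single-library omissions and without the libraries rich in other tissues. Cyp4a14, a fatty acid hydroxylase, had a difference of 1.81 that did not pass the test (adjusted p = 0.0650).

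Genes of lipid uptake and storage were split, with 5 of 24 higher and 2 lower, against 3.74% and 3.14% of all genes. Pparg, the nuclear receptor of lipid storage, ran from 1.67 to 3.97 log2 CPM with a median of 3.14 in HFD livers, and from 1.07 to 4.24 with a median of 1.96 in LFD livers. It rose by 0.93 ± 0.22 (SE, adjusted p = 0.00331), and all HFD libraries lay above all LFD libraries at ZT4 and ZT16. Cd36, a fatty acid transporter of the cell surface, ran from 4.94 to 7.60 with a median of 5.78 in HFD livers, and from 4.37 to 7.35 with a median of 4.99 in LFD livers (log2 difference 0.84 ± 0.21 SE, adjusted p = 0.00563). Mogat1, a monoacylglycerol acyltransferase, rose by 0.95 (adjusted p = 0.0419) at a low mean level of -0.79 log2 CPM. Fitm1, a lipid droplet forming protein, rose by 0.63 (adjusted p = 0.0220) and Fabp4, a fatty acid binding protein, by 0.39 (adjusted p = 0.0122). Beside Fabp5, Abhd5, the cofactor of triglyceride hydrolysis, fell by 0.41 (adjusted p = 0.0333). The count of higher members was 3 both without HFD ZT20 replicate 1 and without the libraries rich in other tissues. No member of 16 genes of triglyceride synthesis and VLDL assembly was called by limma, and 2 had an unadjusted p under 0.05.

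The other genes with large increases had mixed roles. Aatk, a kinase, ran from 2.48 to 4.63 log2 CPM with a median of 3.72 in HFD livers, and from 1.48 to 4.76 with a median of 2.34 in LFD livers. Its highest LFD level came from LFD ZT0 replicate 3, and all HFD libraries lay above all LFD libraries at ZT4, ZT8, ZT12 and ZT16 (log2 difference 1.20 ± 0.19 SE, adjusted p = 1.55e-05). All HFD libraries lay above all LFD libraries at 4 or more times in 0.16% of all genes. Tmem28 ran from 1.76 to 3.39 with a median of 2.68 in HFD livers, and from 0.05 to 3.14 with a median of 1.53 in LFD livers, and was separated at ZT4, ZT8, ZT16 and ZT20 (log2 difference 1.13 ± 0.19 SE, adjusted p = 2.22e-05). Adgrv1, an adhesion G protein-coupled receptor, rose by 1.20 (adjusted p = 6.45e-05). The zinc importer gene Slc39a4 rose by 0.99 (adjusted p = 0.000612), the dicarboxylate transporter gene Slc13a3 by 0.90 (adjusted p = 0.000139), the glypican gene Gpc1 by 0.89 (adjusted p = 0.00120) and Abcc3, an exporter of conjugates, by 0.82 (adjusted p = 0.00499). Acnat2, an acyl-CoA amino acid acyltransferase gene, rose by 1.17 (adjusted p = 0.00416). Mup18 rose by 1.30 (adjusted p = 0.0151), but it belongs to the major urinary protein genes, whose near-identical copies may share reads. Its call was lost without the libraries rich in other tissues.

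**Figure D2:**
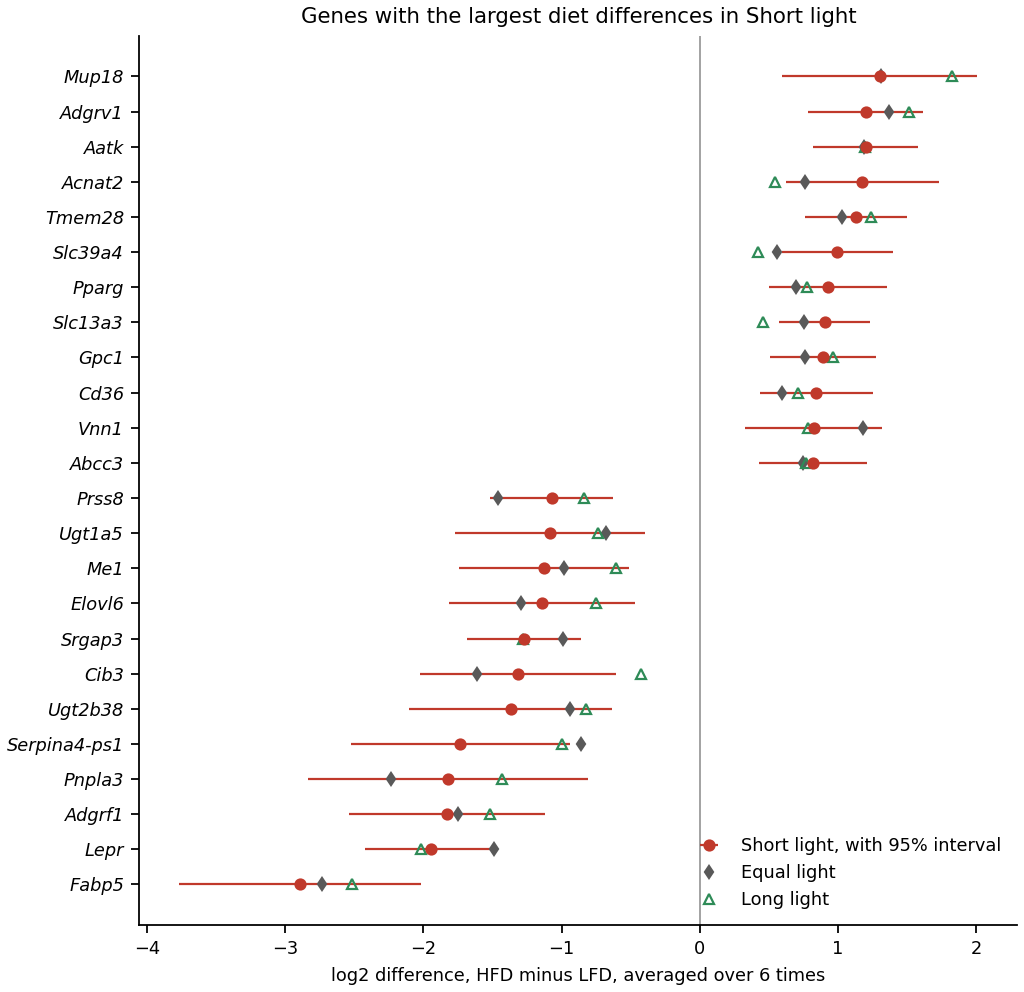
Log2 difference, HFD minus LFD (horizontal axis), of the 24 genes with the largest increases and decreases, with 95% intervals for Short light and points for Equal light (diamonds) and Long light (triangles). All 24 have the same sign under the 3 photoperiods.

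Drug metabolism genes included the largest increase among the named members of any list. Cyp2b9, a cytochrome P450 female-biased in mouse liver, ran from -2.95 to 7.23 log2 CPM with a median of 4.60 in HFD livers, and from -3.61 to 6.57 with a median of -0.94 in LFD livers. The highest LFD level was that of LFD ZT0 replicate 3, and the diets were separated at ZT12 and ZT16 (log2 difference 3.91 ± 0.79 SE, adjusted p = 0.000555). The call of Cyp2b9 was lost with limma-voom on the recovered reads (adjusted p = 0.0687) and without replicate 1 of every group (adjusted p = 0.0798). Cyp2b13, a close relative, rose by 1.76 (adjusted p = 0.00599), but its mean level was -2.31 log2 CPM, near the floor of -3.61. Reads of the Cyp2b and Cyp2c families may be split between copies. Of the 29 drug metabolism genes tested, 19 had a positive difference and 10 a negative one. In all, 6 of the 29 rose, against 3.74% of all genes, and none fell. They included Nr1i3, which encodes the receptor CAR (0.58, adjusted p = 0.0385), Ahr, the aryl hydrocarbon receptor gene (0.39, adjusted p = 0.0116), Cyp2c50 (0.52, adjusted p = 0.0293) and Cyp2c37 (0.58, adjusted p = 0.0436). The count was 3 without the libraries rich in other tissues.

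Of 18 genes of pericentral hepatocytes 9 rose on HFD, against 3.74% of all genes, and none fell. All 18 had a positive difference, and the median was 0.25. Aldh1a1, a retinaldehyde dehydrogenase, ran from 9.21 to 10.87 log2 CPM with a median of 10.36 in HFD livers, and from 8.64 to 10.83 with a median of 9.64 in LFD livers. It was separated at ZT4, ZT8, ZT12 and ZT16 (log2 difference 0.65 ± 0.11 SE, adjusted p = 4.71e-05). Lgr5, a receptor that amplifies Wnt signals, rose by 0.65 (adjusted p = 9.70e-05), Lect2 by 0.42 (adjusted p = 5.13e-05) and Oat, ornithine aminotransferase, by 0.54 (adjusted p = 0.00105). Glul and Cyp2e1, classical pericentral genes, had differences of 0.15 (adjusted p = 0.205) and 0.29 (adjusted p = 0.230). The count was 8 to 9 whichever single library was left out. None of 17 periportal genes was called by limma, 3 had an unadjusted p under 0.05, and their median was -0.03. The summed CPM of the 11 hepatocyte markers ran from 93646 to 152370 in HFD livers and from 104180 to 156640 in LFD livers.

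Kupffer cell and macrophage markers were higher on HFD in 7 of 22 genes, against 3.74% of all genes, with 20 positive differences and a median of 0.33. Cd5l, a scavenger protein of Kupffer cells, ran from 6.21 to 7.88 log2 CPM with a median of 6.996 in HFD livers, and from 6.10 to 7.02 with a median of 6.58 in LFD livers (log2 difference 0.45 ± 0.11 SE, adjusted p = 0.00519). Clec4f, a Kupffer cell lectin, rose by 0.29 (adjusted p = 0.0158), Cd68 by 0.37 (adjusted p = 0.0182), Vsig4 by 0.32 (adjusted p = 0.0265) and Adgre1, which encodes F4/80, by 0.42 (adjusted p = 0.0288). The summed CPM of the list ran from 528 to 1400.5 in HFD livers and from 475 to 813 in LFD livers. The count was 2 without HFD ZT20 replicate 1 and 2 without the libraries rich in other tissues. No marker of lymphocytes, neutrophils, endothelial cells or cholangiocytes was called by limma. Yet 13 of 14 endothelial and 8 of 10 cholangiocyte markers had a positive difference, with 5 of each, in either direction, at an unadjusted p under 0.05. The cholangiocyte marker Onecut1 was among these and went down (-1.13, adjusted p = 0.0783). The summed CPM of the cholangiocyte list had a median of 118.79 in HFD livers and 134.25 in LFD livers. Only 11 of 18 lymphocyte and 4 of 12 neutrophil markers were tested, with 5 and 1 positive. All 18 stellate cell and matrix genes tested had a positive difference, with a median of 0.15. Of the 18, 1 was called, against 3.74% of all genes, Colec11 (0.16, adjusted p = 0.0360). That call was lost without the libraries rich in other tissues.

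Acute phase genes rose in 4 of 24, against 3.74% of all genes, and none fell. Of the 24, 7 had a negative difference, among them Hamp, hepcidin (-0.68, adjusted p = 0.131), and Orm1 (-0.24, adjusted p = 0.202). Orm3 rose by 1.37 (adjusted p = 0.00142), Lcn2 by 1.58 (adjusted p = 0.0220), Hp, haptoglobin, by 0.56 (adjusted p = 0.0254) and Saa4 by 0.55 (adjusted p = 0.0202). Lcn2, a siderophore-binding protein gene, ran from 1.14 to 8.91 log2 CPM with a median of 2.59 in HFD livers, and from -0.64 to 4.57 with a median of 1.40 in LFD livers. The highest Lcn2 levels came from HFD ZT4 replicate 1 (8.91) and HFD ZT20 replicate 1 (6.82), which also had the highest summed CPM of the acute phase list, 71219 and 40815, against at most 28191 in LFD livers. The median of that sum was lower in HFD livers, at 22025, than in LFD livers, at 23547. The count was 1 without HFD ZT20 replicate 1, and the call of Lcn2 was also lost with limma-voom (adjusted p = 0.104).

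Further lists held at most 5 calls each, and every count in this paragraph stands beside 3.74% of all genes higher and 3.14% lower. Amino acid breakdown had 5 of 28 genes higher, against 3.74% of all genes, with 22 positive differences and 12 at an unadjusted p under 0.05. Among the 5 were Cth (0.23, adjusted p = 0.0173) and Amt of glycine cleavage (0.23, adjusted p = 0.0265). The count was 2 after centring each library on its median. Beside 3.74% of all genes higher and 3.14% lower, bile acid genes had 1 of 24 higher, the phospholipid exporter Abcb4 (0.37, adjusted p = 0.000430), and 1 lower, the bile acid importer Slc10a1, which fell by 0.39 (adjusted p = 0.00301). In the list of gluconeogenesis and glycogen 2 of 18 fell, the glycogen targeting subunit Ppp1r3g by 1.49 (adjusted p = 0.0175) and glycogen synthase Gys2 by 0.39 (adjusted p = 0.0223). Ppp1r3g had a low mean level of -0.09 log2 CPM. The call of Ppp1r3g was lost with limma-voom (adjusted p = 0.0733), and that of Gys2 without the libraries rich in other tissues (adjusted p = 0.0550). Rbm3, a cold-inducible RNA-binding protein, was the 1 of 17 heat shock and temperature genes called, and fell by 0.31 (adjusted p = 8.80e-05). In the nuclear respiratory chain list 4 of 26 fell by 0.14 to 0.18, against 3.14% of all genes, and 24 had a negative difference. None of the 4 was called without the libraries rich in other tissues. Of 26 genes of the growth hormone axis and sex bias 10 had a positive and 16 a negative difference, with 13 at an unadjusted p under 0.05. Against 3.74% of all genes 3 of the 26 rose, Cyp2b9, Cyp2b13 and the estrogen sulfotransferase Sult1e1 (0.98, adjusted p = 0.00721). Against 3.14% of all genes 2 fell, Igf1 by 0.22 (adjusted p = 0.0434) and Cyp4a12b by 0.49 (adjusted p = 0.0454). Neither Igf1 nor Cyp4a12b was called without HFD ZT20 replicate 1. Of 15 NRF2 targets Ephx1 and Hmox1 rose by 0.41 (adjusted p = 0.0221) and 0.31 (adjusted p = 0.0234), and neither was called without that library. Of 21 interferon genes Rsad2 rose by 0.44 (adjusted p = 0.0256), a call also lost without it, and Bst2 fell by 0.23 (adjusted p = 0.00150). Lepr was the 1 of 17 insulin signalling genes called, and Ldha, lactate dehydrogenase, the 1 of 18 in glycolysis (0.23, adjusted p = 0.0149). None of 19 clock genes and none of 19 unfolded protein response genes was called by limma, with 0 and 1 at an unadjusted p under 0.05.

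**Figure D3:**
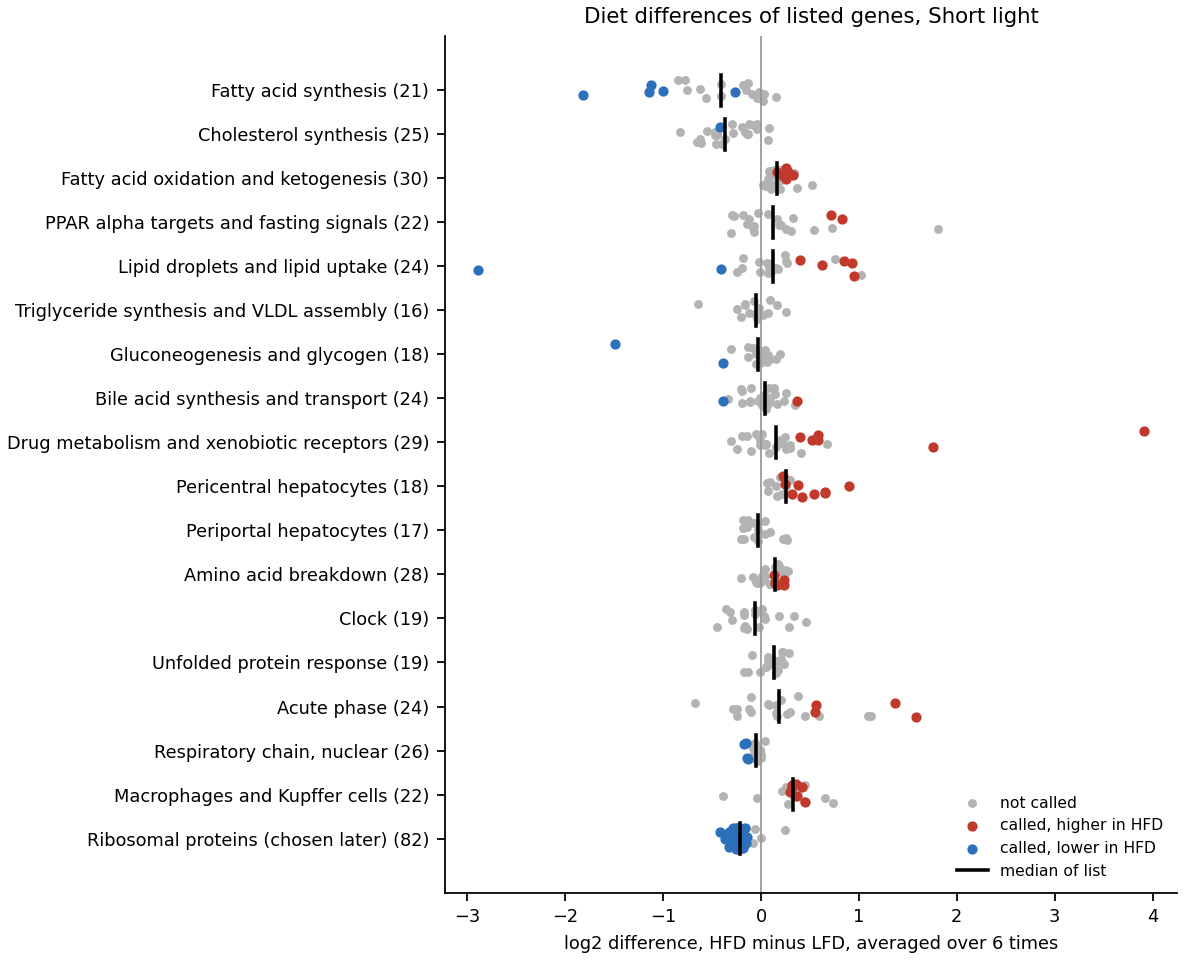
Log2 difference, HFD minus LFD (horizontal axis), of each gene in 17 lists and in the ribosomal protein group, with called genes coloured and black lines at the medians. Fatty acid synthesis has a median of -0.41 and pericentral hepatocytes a median of 0.25.

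The cytosolic ribosomal protein genes were lower on HFD as a group. They were chosen after their values were seen, by their symbols, so they are described with no test of the group. Of 82 tested, 66 were called lower (80.5%) and 0 higher, against 3.14% of all genes lower, and 81 had a negative difference, with a median of -0.21. Their mean level ran from 5.90 to 6.37 log2 CPM with a median of 6.18 in HFD livers, and from 5.998 to 6.69 with a median of 6.37 in LFD livers. The ranges overlapped, and the lowest LFD value came from LFD ZT0 replicate 3. Rpl12 fell by 0.36 (adjusted p = 7.29e-06), Rps27a by 0.30 (adjusted p = 1.55e-05) and Rpl32 by 0.25 (adjusted p = 1.31e-05), and reads of these genes may be shared with processed pseudogenes. The count was 55 without HFD ZT20 replicate 1, 50 without the libraries rich in pancreas or muscle RNA and 26 without replicate 1 of every group. Under Equal light 80 of the 82 were negative with a median of -0.19, and under Long light 80 with a median of -0.15. The median longest transcript of the 82 genes was 1100 bases. Other genes were taken at or above the lower quartile of the level of the 82, with no upper bound. Of the 69 with a longest transcript under 1000 bases (median 837) 7.25% were called lower (median difference -0.04). Of the 1988 longer ones (median 3465) 3.62% were called lower (median difference 0.0052). Their median levels were 7.14 and 6.98 log2 CPM, against 6.51 for the 82 genes. The part of transcript length in the result was not tested.

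**Figure D4:**
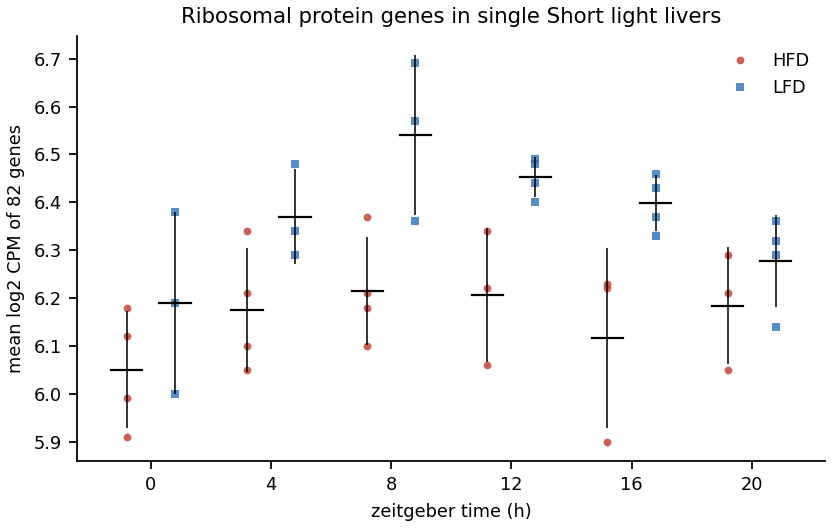
Mean log2 CPM of the 82 cytosolic ribosomal protein genes (vertical axis) in each Short light library, with HFD libraries to the left of LFD libraries at each time; lines are means and bars are SD. The HFD libraries run from 5.90 to 6.37 and the LFD libraries from 5.998 to 6.69.

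Genes that host small nucleolar RNAs, chosen in the same way, were called lower in 7 of 14, against 3.14% of all genes, among them Snhg6 (-0.29, adjusted p = 0.000280), Snhg5 (-0.39, adjusted p = 0.000964) and Snhg1 (-0.40, adjusted p = 0.00222). Mitochondrial ribosomal protein genes did not share this: of 77, 1 was called higher and 1 lower, with a median of -0.00.

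The diet differences were next taken at each time. Limma called 9 genes at ZT4 (0.0625%), 27 at ZT8 (0.188%) and none (0%) at ZT0, ZT12, ZT16 or ZT20, where 389, 780, 1005 and 907 genes had an unadjusted p under 0.05. Each time rests on 7 libraries. At ZT4 the largest differences among the called genes of sufficient level were those of Lepr (-2.96, adjusted p = 0.0362), Tmem28 (2.03, adjusted p = 0.0453) and Gda, guanine deaminase (1.26, adjusted p = 0.0453). At ZT8 the called genes included Exd1 (-1.53, adjusted p = 0.0282) and Tor3a, a torsin ATPase gene (1.48, adjusted p = 0.0103). With single libraries left out, the call at ZT4 was lost in 5 of 42 analyses for Lepr, 7 for Tmem28 and 10 for Gda, and the call at ZT8 in 5 for Exd1 and 1 for Tor3a, the one without LFD ZT8 replicate 1. Most of the 42 omissions leave the libraries of a given time untouched. Every loss for Lepr and Exd1, and most losses for Tmem28 and Gda, came from leaving out 1 of the 7 libraries of that time. None of the 27 calls at ZT8 was left without the libraries rich in other tissues, 3 of which are ZT8 libraries under Short light. The median absolute difference of the 990 genes was 0.19 at ZT0, 0.34 at ZT4, 0.33 at ZT8, 0.26 at ZT12, 0.32 at ZT16 and 0.25 at ZT20.

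The test of diet by time, which asks whether the diet difference itself changed between times, called 0 genes (0%). There 568 genes had an unadjusted p under 0.05, or 3.95%, and the lowest adjusted p was 0.215. A 24 h cosine fitted to each diet differed for 1 gene (0.00695%), Tfap4, named after its values were seen (adjusted p = 0.0281). Its amplitude was 0.41 with a peak at 19.8 h in HFD livers, and 0.45 with a peak at 5.1 h in LFD livers. That call was lost in 16 of 42 single-library omissions. Over all genes 2034 passed the test of a daily cosine in HFD livers and 3906 in LFD livers, 1471 of them in both. These counts do not test a difference between the diets.

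**Figure D5:**
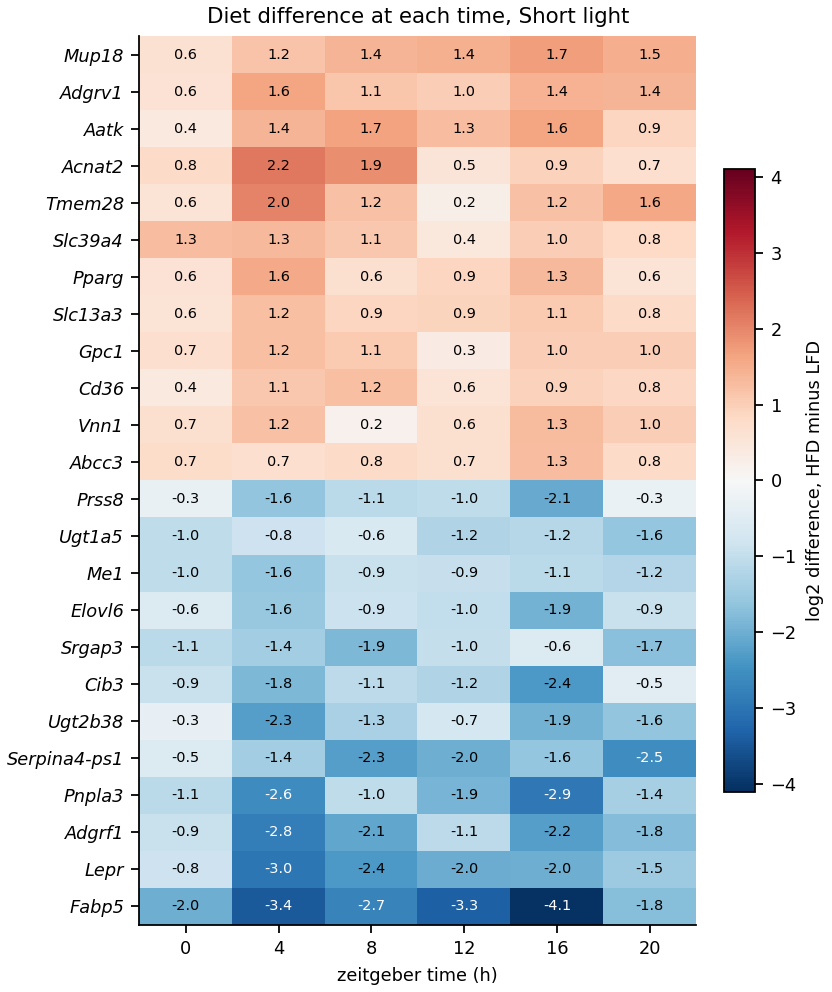
Log2 difference, HFD minus LFD (colour), of the 24 genes with the largest increases and decreases (rows) at each of 6 zeitgeber times in hours (columns). Lepr has its largest difference, -2.96, at ZT4.

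Under Equal and Long light the same contrast had the same sign as under Short light for 933 of the 990 genes, or 94.2%, against 53.4% of all genes. The diet difference under Short light, tested against the mean of those under Equal and Long light, was called for 0 genes (0%), with 496 at an unadjusted p under 0.05 (3.45%). The median 95% half-width of that comparison was 0.19 on the log2 scale, and it was under 0.5 for 93.03% of the genes. Of the 990 genes, 441 were also called under Equal light, 352 under Long light and 448 under neither. Ptp4a1, a phosphatase, had one of the largest contrasts, with -0.79 under Short light (adjusted p = 0.0306), 0.15 under Equal light and 0.21 under Long light, and did not pass the test of the difference. For Lepr the differences were -1.95 under Short light, -1.49 under Equal light and -2.02 under Long light, and for Fabp5 -2.89, -2.73 and -2.52 in the same order.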

How the data were processed

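Liver RNA was sequenced by the submitters as stranded, poly(A)-selected libraries with paired reads, per the labels' protocols, and the tools were STAR, featureCounts and Subread 1.6.2 with the builds mm10 and GRCm38, per the submitters' processing notes. The authors deposited log2 CPM values of 15398 genes. Values were whole multiples of 1 read above a common floor of 0.08176 CPM, with a prior of 2 reads, so depth could be recovered (99.50% to 99.72% of values were whole within 0.05 read). Because the unit is log2, the main test was limma 3.58.1 with a mean trend (R 4.3.3) in place of a count test. It used 1 mean per group over the libraries of all 3 photoperiods, 14397 genes that reached 1 CPM in 3 or more of them, equal weight for the 6 times, and Benjamini-Hochberg adjustment over all genes at 0.05. Every adjusted p is from limma. Since it is a difference of means with equal weight for the times, a log2 difference can depart from the difference of medians, widely so for genes with a wide spread such as Cyp2b9. Libraries were compared within groups, and chi-square divided by its degrees of freedom was 23.35 or more in each of 54 replicate pairs, so none was counted as a duplicate. Gene names and coordinates were matched to GENCODE M21 for 15379 genes, and promoters came from RefSeq.

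Named genes were the 12 largest increases and 12 largest decreases among called genes with a mean of at least 2 log2 CPM and the same sign at all 6 times, up to 4 members of each of 37 lists by p, up to 6 genes for diet by time, the cosine and the comparison with the other photoperiods, and up to 3 per time; other called list members, Tfap4 and the ribosomal and small nucleolar RNA host genes were named after their values were seen. Members and lists were chosen with earlier results of these data known. Some genes that this rule names are not reported here. The script was tested on simulated data. Alternatives were limma-voom on the recovered reads, other filters, pseudocounts and scalings, array weights, the library number as a covariate, and omission of libraries, times or replicates.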

Additional observations from a re-analysis of the deposited data

Results flagged for a closer look

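Among the 24 genes with the largest differences, the groups of 4 libraries gave 144 tests for a library far from the others of its group, and 11 values in 9 libraries were found, where chance gives about 1 in 20. In HFD livers, Fabp5 read 5.893 log2 CPM in ZT0 replicate 3 while the others lay between 2.32 and 2.91, and Elovl6 read 7.332 in the same library while the others lay between 8.20 and 8.34. Pnpla3 read -0.07502 in HFD ZT8 replicate 2, against 2.90 to 3.22 in the others, and Cib3 read 3.759 in HFD ZT4 replicate 1, against 0.72 to 1.18. In LFD livers at ZT12, Adgrv1 read 2.009 in replicate 4 (others 1.16 to 1.28), and replicate 3 was low for Aatk at 1.484 (others 2.34 to 2.37) and for Abcc3 at 6.189 (others 6.69 to 6.76). In LFD livers at ZT16, Abcc3 read 5.89 in replicate 2 (others 6.57 to 6.65), Fabp5 read 6.279 in replicate 3 (others 7.62 to 7.76) and Ugt2b38 read 4.511 in replicate 4 (others 2.97 to 3.23). Gpc1 read 2.799 in LFD ZT20 replicate 1 (others 3.41 to 3.5).

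The daily cosine of Tfap4 differed between HFD and LFD livers (limma adjusted p = 0.02814).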

How the results depend on the processing

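All 990 genes kept the sign of their difference in every alternative in which they were tested. The count of 990 was 900 with limma-voom (888 shared), 917 after median centring and 1387 with the Short light libraries alone. It was 2297 with array weights (1255 higher, 1042 lower), 569 without the libraries rich in pancreas or muscle RNA (293 higher, 276 lower), 413 without ZT4 (198 higher, 215 lower), 456 without ZT8 (235 higher, 221 lower) and 488 without ZT16 (253 higher, 235 lower). The count of higher genes was 358 without ZT20. Leaving out 1 library gave 556 to 1234 genes, and leaving out 1 replicate number 120 (replicate 1) to 626, with 51 to 663 higher and 69 to 571 lower over both. At ZT4 the 9 calls became 4 with limma-voom, 16 with a stricter filter, 22 with log2(CPM + 1), 2 with quantile normalization, 686 with array weights, 29 with library number as a covariate and 2 without the rich libraries, and 0 to 28 with libraries left out. At ZT8 the 27 calls became 41 with log2(CPM + 1), 446 with array weights and 0 without the rich libraries, and 0 to 49 with libraries left out. Array weights gave 5 calls at ZT12, 95 at ZT16 and 6 for diet by time. With libraries left out ZT12 gave 0 to 2, diet by time 0 to 1 and the cosine 0 to 4, and the cosine gave 0 without the rich libraries. With libraries left out, 3 uncalled markers changed sign: Cfd ran from -0.1136 to 0.7567, Adipoq from -0.7654 to 0.02757 and Tnnc2 from -0.02382 to 0.6438. The cause of these shifts was not tested. Of the 24 genes with the largest differences 20 kept their call whichever single library was left out, and 10 without replicate 1. No paired analysis was possible because the replicate numbers only name libraries within a group. Intervals cover the spread between libraries, and the median 95% half-width was 0.16 on the log2 scale.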
